A study of Homo sapiens with 7 samples.

Results

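MYCN binding was described at 6 genes of the SOX family (SOX11, SOX4, SOX12, SOX2, SOX9 and SOX10) in the Kelly line, established from a human neuroblastoma, which has an amplified MYCN gene and an activated ALK receptor tyrosine kinase. The measurement was chromatin immunoprecipitation followed by sequencing (ChIP-seq), in which DNA crosslinked to MYCN is enriched with an antibody and compared with input, the same kind of chromatin sequenced without that step. For each gene, every peak summit was taken whose position fell in an hg19 window of the gene plus about 10 kb on each side. This gave 51 of the 64657 summits of the list, in 22 intervals at 5 of the 6 genes, and no summit in the SOX10 window. The set was chosen by measured values of the same list, since SOX11 was included because it holds an interval with very many summits. The values below are therefore descriptions without tests.

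The labels give 7 samples in 4 groups: 2 MYCN ChIP and 2 input samples of cells resistant to TAE684, an ALK inhibitor, kept with 1 µM TAE684 for 48 h, and 2 MYCN ChIP samples and 1 input sample of TAE684-sensitive cells kept with DMSO, the vehicle, for 48 h. All are the same cell line, and nothing in the labels says how many independent cultures the resistant cells stand for. Both ChIP samples of a state share 1 peak list, so no value has a replicate error. In the file of the resistant cells, all 51 rows of the SOX windows were identical to those of the sensitive cells, as were all 64657 rows of the file, and every peak there bears a name of the sensitive list. No comparison between the states was made, and everything below is from sensitive cells.

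SOX proteins are transcription factors that bind DNA through a high-mobility-group (HMG) box, and they are sorted into groups by its sequence. SOX4, SOX11 and SOX12 form the SoxC group, which acts in neuronal differentiation and, for SOX4 and SOX11, in the growth of the sympathetic ganglia from which neuroblastoma arises. SOX2 belongs to the SoxB1 group and keeps neural progenitors undifferentiated. SOX9 and SOX10 belong to the SoxE group, which specifies neural crest. SOX10 then marks glial cells and Schwann cell precursors, and SOX9 also directs cartilage formation. MYCN binds with its partner MAX to E-boxes, short sites of the form CANNTG, with highest affinity for CACGTG. The cell line's state could not be checked from marker gene expression, since only DNA binding was measured.

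Most of the MYCN summits in these windows lay at the SoxC genes, 39 of 51, or 76.5%, and this share came mainly from SOX4 and SOX11. Per kb of window, the SoxC gene SOX12 had 0.24 summits, against 0.269 at SOX9 and 0.217 at SOX2. SOX4 had 17 summits in 7 intervals, SOX11 had 16 in 4 intervals, and SOX12 had 6 in 3 intervals. SOX9 had 7 summits in 5 intervals and SOX2 had 5 in 3 intervals. As background to these counts, fixed tiles of the same width were laid over chromosomes 1 to 22 and X. At least as many summits as at SOX4 were found in 0.0132% of all 25-kb tiles, and at least as many as at SOX11 in 0.0356% of all 30-kb tiles. The corresponding shares were 1.32% of 25-kb tiles for SOX12, 1.96% of 23-kb tiles for SOX2 and 0.82% of 26-kb tiles for SOX9. Tiles of 33 kb without any summit, as at SOX10, made up 71.3%. The tiles include gene-poor and unmappable sequence, and the windows were placed on genes with these counts known, so the shares are given for scale only.

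**Figure D1:**
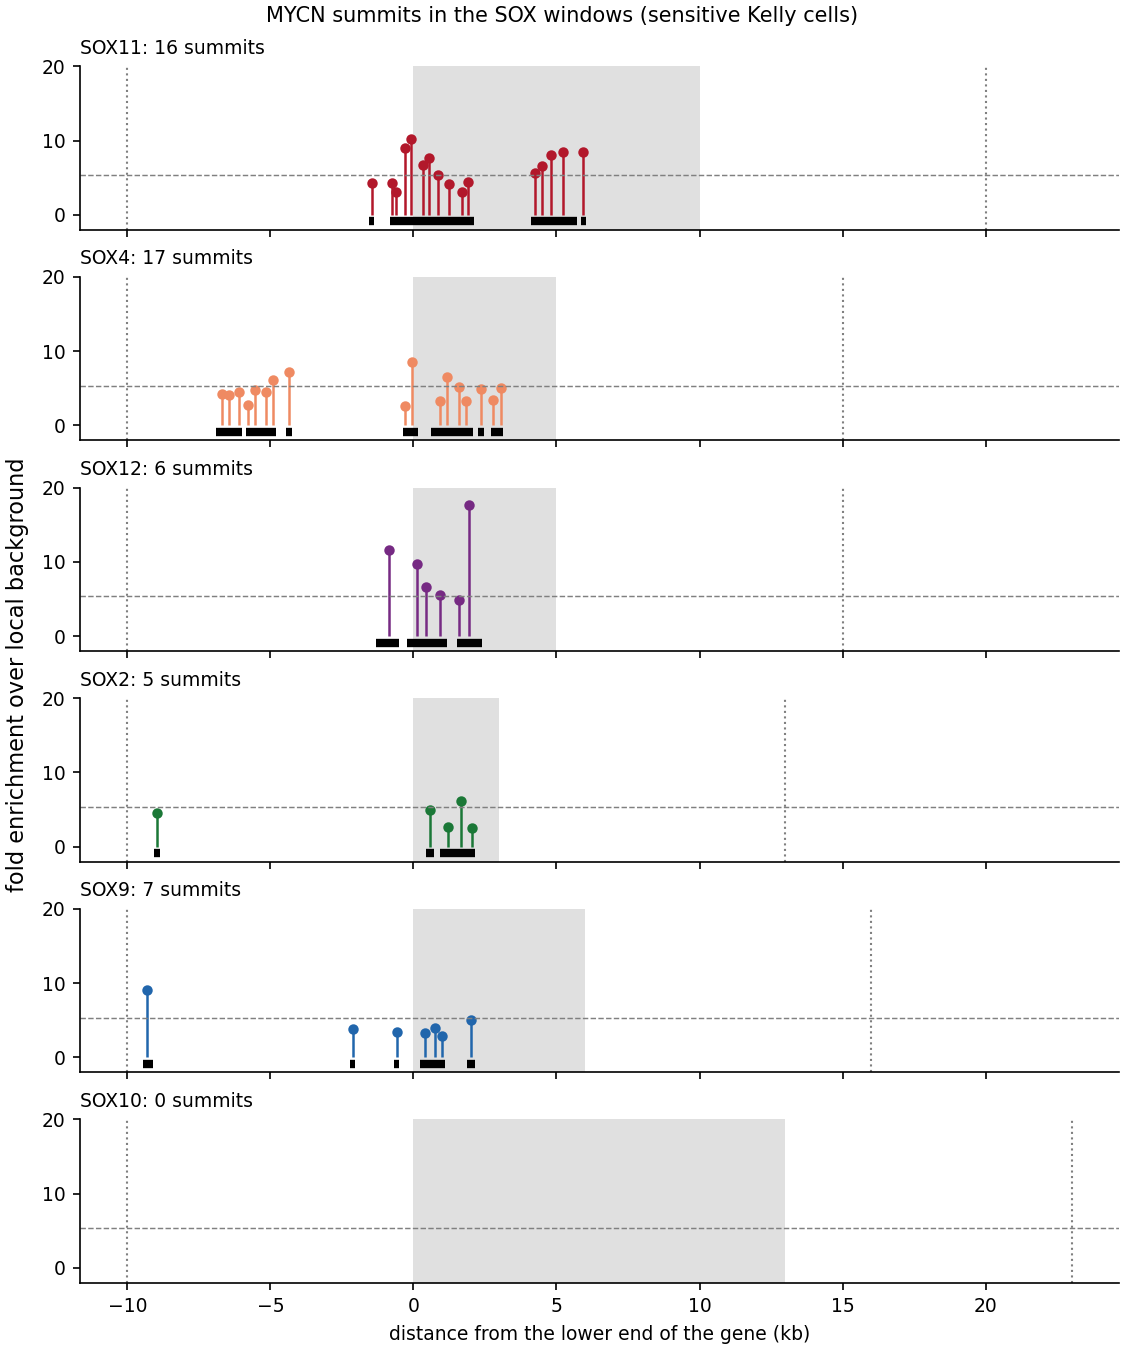
Fold enrichment (vertical axis) of each MYCN summit against its distance in kb from the lower end of the gene (horizontal axis), 1 panel per gene. Grey marks the gene, dotted lines the window, black bars the peak intervals and the dashed line the median of the whole list, 5.35. Summits sit in and below the genes, with 0 above them, and SOX10 has 0 summits.

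By position, 31 of the 51 summits lay within the genes and 20 in the 10 kb below them, while 0 lay in the 10 kb above. The ends of each gene were taken as the window less 10 kb and are known only to about 1 kb. All counts by position relative to a gene end are therefore approximate, those within 1 kb most of all. SOX4, SOX12 and SOX2 are on the plus strand in RefSeq, and SOX11 and SOX9 are known to be so too, so the lower end is the transcription start of each of these 5 genes. Within 1 kb of the lower end, on either side, there were 19 of the 51 summits, and within 2 kb there were 30. All 5 genes with summits had at least 1 within 1 kb of this end. The same shares over the whole list were not determined, since no hg19 annotation was used. These counts by position therefore have no background to be judged against. The first summits left out by the windows lay 0.598 kb below and 2.46 kb above the SOX2 window (fold 4.61 and 5.86), 7.97 kb below the SOX11 window (fold 5.37), 4.93 kb below and 6.39 kb above the SOX12 window (fold 5.23 and 3.84) and 13.1 kb above the SOX9 window (fold 7.17).

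The fold enrichment, the authors' ratio of ChIP signal to a local background at the summit, was moderate at most of these sites. Its median over the 51 summits was 4.91, with a range of 2.55 to 17.7, against a median of 5.35 and quartiles of 3.90 and 7.54 over the whole list. Of the 51, 11 were above the upper quartile of the list and 14 below the lower quartile. Of the 51 summits, 3 reached a fold enrichment of 10 (5.88%, exact 95% CI 1.23 to 16.2), as did 12% of all summits of the list. The 3 summits were 1 at SOX11 and 2 at SOX12. The interval covers counting error only, and neighbouring summits of 1 stretch are not independent sites.

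The number of ChIP fragments behind each summit was recovered from its fold enrichment and p-value. It had a median of 78 at the SOX summits, with a range of 28 to 271, against 63 over the list, and 33 of the 51 summits were above the list's median. The local background is in input fragments, and MACS2, the peak caller, by default takes the largest of averages over several widths around a summit. It had a median of 9.0 at the SOX summits and 7.56 over the list. None of the 51 had the genome-wide mean background of 1.61, the lowest value of the list. The lowest of the 51 was 2.88, and 14.8% of the list's summits had a lower background than that. The share of the list at 1.61 itself was not determined. The SOX summits thus had more fragments and a higher background than the list by their medians, and a lower fold. The fold is the ratio of ChIP fragments to background after the fragments are scaled by 0.641 and 1 is added to each.

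**Figure D2:**
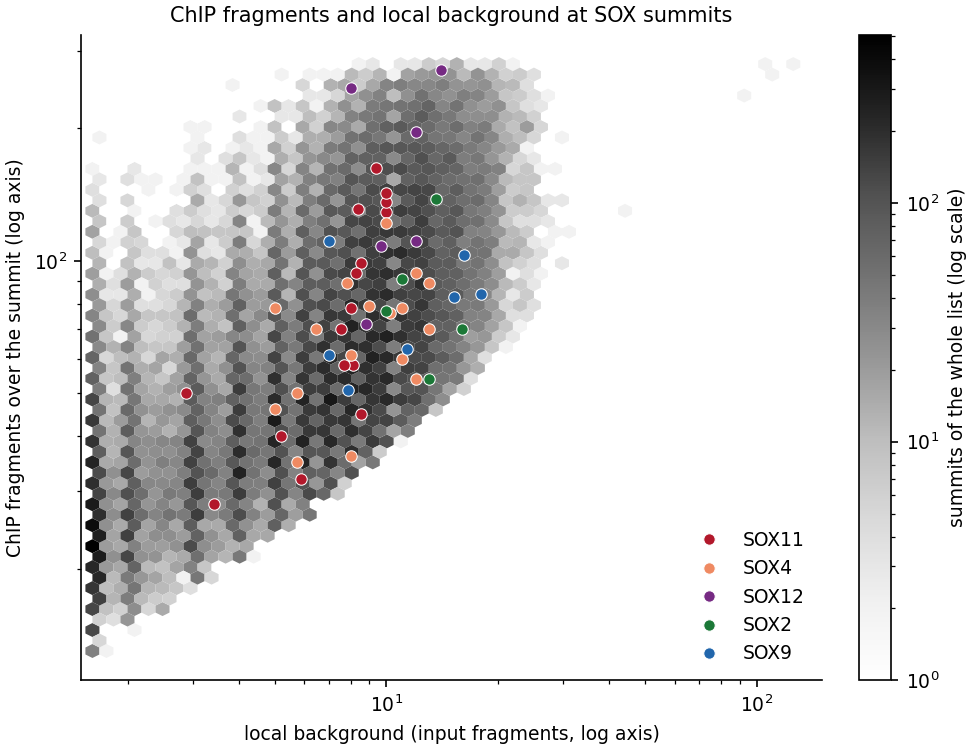
ChIP fragments over the summit (vertical axis, log) against local background in input fragments (horizontal axis, log) for the 51 SOX summits (coloured points) over the number of all 64657 summits per cell (grey). SOX12 reaches 271 fragments. The lowest background of a SOX summit is 2.88, and 14.8% of all summits have a lower one.

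Promoter sequences of SOX4, SOX12 and SOX2, 3 of the 6 genes, were matched by symbol in RefSeq, and they are shown because summits lie around the start of each. They run from 250 bases before to 50 bases after the start, 5′ to 3′ on the plus strand of GRCh38.p14, with every CANNTG in capitals. The peaks are on hg19, so whether an interval covers exactly these bases was not determined. The windows are chr6:21593501-21593800 for SOX4, chr20:325302-325601 for SOX12 and chr3:181711675-181711974 for SOX2.
SOX4: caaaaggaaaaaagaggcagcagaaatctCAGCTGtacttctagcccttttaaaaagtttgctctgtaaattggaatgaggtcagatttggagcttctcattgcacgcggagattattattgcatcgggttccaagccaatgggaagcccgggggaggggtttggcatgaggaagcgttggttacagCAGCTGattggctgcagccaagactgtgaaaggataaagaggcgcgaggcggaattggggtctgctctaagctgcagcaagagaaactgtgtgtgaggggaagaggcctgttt
SOX12: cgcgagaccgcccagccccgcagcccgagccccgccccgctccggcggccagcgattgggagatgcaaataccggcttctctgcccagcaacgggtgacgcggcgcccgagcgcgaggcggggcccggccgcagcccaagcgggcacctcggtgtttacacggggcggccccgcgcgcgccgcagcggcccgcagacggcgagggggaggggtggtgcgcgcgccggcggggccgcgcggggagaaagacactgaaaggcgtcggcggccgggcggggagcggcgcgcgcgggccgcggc
SOX2: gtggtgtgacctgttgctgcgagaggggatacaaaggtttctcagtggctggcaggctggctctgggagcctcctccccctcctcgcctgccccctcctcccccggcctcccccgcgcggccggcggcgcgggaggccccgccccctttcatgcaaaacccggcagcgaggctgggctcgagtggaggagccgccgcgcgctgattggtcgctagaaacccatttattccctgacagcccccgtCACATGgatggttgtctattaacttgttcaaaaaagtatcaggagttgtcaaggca

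The core site CACGTG was found in 0 of these 3 promoters, and in 7.26% of the 35116 promoters of the same length in the table. SOX4 had 2 CANNTG matches, both CAGCTG, and 36.4% of all promoters had at least 2. SOX2 had 1, CACATG, and 68.7% had at least 1. SOX12 had 0, as did 31.3% of all promoters. Each of these motifs was searched on both strands (CANNTG and CACGTG read the same on both), and no matches overlapped. The SOX12 promoter differed in composition: its GC content was 80.3%, higher than in 97.7% of all promoters, and it held 54 CpG dinucleotides, against a median of 14. The GC content was 63.3% for SOX2 and 49.3% for SOX4, with a median of 58.7% over the table. A match is a stretch of letters and not a measured site, and only these 300 bases were searched.

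SOX11 is a SoxC factor highly expressed in neuroblastoma of the sympathetic neuronal type. Its 16 summits lay in intervals that spanned 7583 bp on chromosome 2, gaps included, from 5830460 to 5838042. Its main interval, from 5831176 to 5834119, spanned 2944 bp across the lower end of the gene and held 10 summits. In order of position, its fold enrichments were 4.31, 3.13, 9.04, 10.2, 6.76, 7.61, 5.36, 4.19, 3.13 and 4.39. The same summits held 40, 32, 131, 163, 99, 129, 70, 58, 45 and 58 ChIP fragments. The signal was therefore highest at the third and the fourth summit, at 5831688 and 5831923, and lower on both sides. It rose again at the sixth summit, whose 129 fragments were close to the 131 of the third. The fourth, at 25.4% of the interval's length, lay at the lower end of the gene, within the 1-kb rounding. Its fold was higher than that of 88.6% of the list's summits, and its −log10 q was 66.3.

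The local background along this interval ran from 5.18 to 10.0 input fragments, and the ChIP fragments from 32 to 163. Their spreads cannot be compared directly, since such a background can be an average over a wider stretch and summits are picked for their ChIP signal. The distances between successive summits were 152 to 442 bp, with a median of 291 bp over 9 distances, close to the median of 298 bp over the 16892 such distances of the list. A −log10 q of at least 10 was reached by 7 of the 10 summits. The median −log10 q of the whole list was 14.4, so most of its summits reached 10 too.

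**Figure D3:**
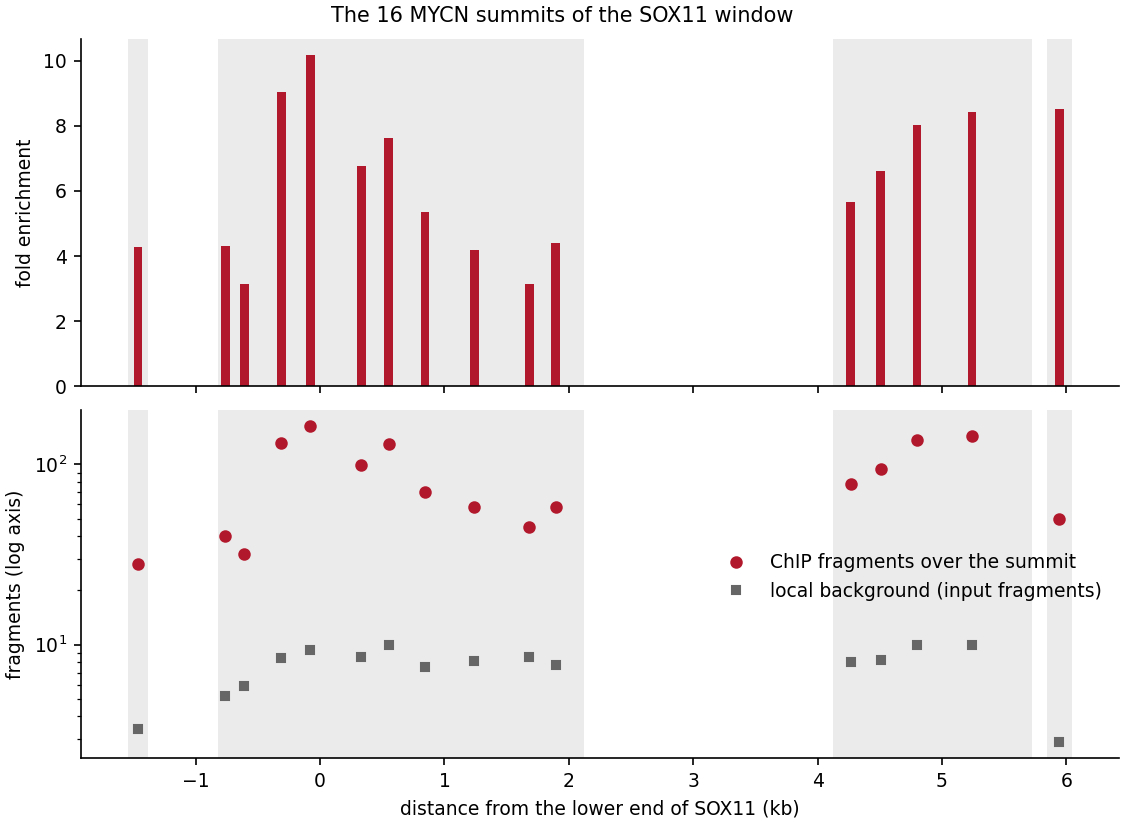
The 16 summits of the SOX11 window by distance in kb from the lower end of the gene (horizontal axis). Upper panel, fold enrichment (bars); lower panel, ChIP fragments (circles) and local background in input fragments (squares) on a log axis, with intervals shaded. The fold peaks at 10.2 at the lower end of the gene and again reaches 8.43 and 8.51 inside it.

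A second region of binding lay inside SOX11, 2002 bp above the first. Its interval from 5836122 to 5837725, 1604 bp wide, held 4 summits with fold enrichments of 5.67, 6.62, 8.02 and 8.43, in order of position. They held 78, 94, 136 and 143 ChIP fragments over a background of 8.0 to 10.0 input fragments, so both measures were highest at the upper end of the interval. After a gap of 119 bp came an interval of 198 bp, from 5837845 to 5838042, with a single summit of fold 8.51. That summit had only 50 ChIP fragments, and its background of 2.88 was the lowest in the SOX windows. Among the 16 SOX11 summits it was rank 3 by fold and rank 12 by fragments. The remaining SOX11 summit, at 5830536, was a single one of fold 4.29 with 28 fragments, the fewest of the 51.

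Only 3 of the 47765 intervals of the list held 10 summits, the highest number, and the SOX11 interval was among them because it was chosen so. The other members of this trio differ from it in signal. The SOX11 interval had a highest fold of 10.2 and a median background of 8.26. The interval on chromosome 17 from 42295693 to 42298946 had 12.6 and 14, and the interval on chromosome 3 from 128206602 to 128209306 had 4.17 and 18.2. By width the SOX11 interval was rank 7 in the list, and by highest fold rank 6874. The highest fold in the SOX11 interval was above that of 63.9% of the 1254 intervals with 4 or more summits, whose median was 8.78. Nearly all of these intervals hold fewer summits, and a highest value over more summits tends to be higher. The 63.9% is therefore given for scale only.

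SOX4, a SoxC factor with roles in many tissues, had the most summits in its whole window, 17 against 16 at SOX11, and a lower signal than SOX11 by its median fold. This order of counts did not hold for summits with a fold of at least 5 (6 at SOX4, 10 at SOX11) or in windows narrowed by 5 kb (11 and 16), and both genes had 12 summits once those under a −log10 q of 10 were left out. The median fold was 4.46 at SOX4 and 6.14 at SOX11, and the highest fold 8.50 at SOX4 and 10.2 at SOX11. The ranges overlapped widely, with 2.68 to 8.50 at SOX4 and 3.13 to 10.2 at SOX11. SOX4 summits formed 2 groups on chromosome 6, separated by 3870 bp without a peak.

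The first SOX4 group lay upstream of the gene, from 21587109 to 21589769, and held 8 summits in 3 intervals. Their fold enrichments were 4.25, 4.15, 4.43, 2.74, 4.71, 4.46, 6.17 and 7.20 in order of position, so the highest stood nearest to the gene. That summit, at 21589651, held 122 ChIP fragments, the most at SOX4. The second group, from 21593640 to 21597146, held 9 summits in 4 intervals. Its fold enrichments were 2.68, 8.50, 3.29, 6.57, 5.17, 3.28, 4.91, 3.48 and 5.08. The second of these, at 21593940, stood at the lower end of the gene within the 1-kb rounding and was the highest of SOX4 by fold, with 78 fragments over a background of 5.0. No further peak followed for 50 kb outside the window on either side.

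SOX12, the remaining SoxC gene, had few summits and the strongest ones. Its 6 summits on chromosome 20 had fold enrichments of 11.7, 9.75, 6.59, 5.55, 4.80 and 17.7 in order of position, with a median of 8.17. They held 271, 196, 108, 111, 72 and 247 ChIP fragments. The highest fold belonged to the last summit, at 307926, within the gene and in an interval from 307514 to 308397. It was higher than at 98.7% of the list's summits, and its −log10 q of 136.8 was higher than at 99.8%. The first summit, at 305151 in an interval from 304682 to 305500, held more fragments than 99.9% of the list's summits, over a background of 14. Its 271 fragments were close to 280, the most at any summit of the list. Whether 280 is a ceiling set by the handling of duplicate reads was not tested. Such a ceiling would also hold down the fold at summits near it. In RefSeq order the next gene below is NRSN2-AS1 for SOX12, LINC01248 for SOX11, LOC107986579 for SOX4 and SOX9-AS1 for SOX9. Distances to them on hg19 were not determined, and no summit below a gene was assigned to it alone.

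SOX2, the SoxB1 factor, had 5 summits on chromosome 3 with a lower signal. In order of position the fold enrichments were 4.58, 4.95, 2.70, 6.14 and 2.55, and the ChIP fragments were 77, 91, 70, 138 and 54. The highest, at 181430671, lay inside the gene in an interval from 181429924 to 181431140. The first, at 181420044, stood 1.04 kb inside the edge of the window, and the nearest summit beyond that edge, of fold 4.61, stood 0.598 kb outside it. Only 1 of the 5 was above the median fold of the list. The local background was 10.0 to 16 input fragments, with a median of 13 against 8 over all summits of chromosome 3. SOX2 lies within the long noncoding gene SOX2-OT in RefSeq, so these summits were not assigned to SOX2 alone.

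SOX9, of the SoxE group, had 7 summits on chromosome 17, and the strongest was far from the gene. The fold enrichments were 9.02, 3.80, 3.36, 3.34, 3.89, 2.89 and 5.02 in order of position, with a median of 3.80, the lowest of the 5 genes. The ChIP fragments were 111, 51, 63, 83, 103, 84 and 61. The summit of fold 9.02, at 70107694, lay 9.31 kb below the gene and 0.694 kb inside the window's edge. The interval from 70117214 to 70118112, at the start of the gene, held the 3 summits of fold 3.34, 3.89 and 2.89. Their background was 15.3, 16.2 and 18 input fragments, the last being the highest in the SOX windows. By fragments the middle one, with 103, was rank 2 of 7 at SOX9, and by fold rank 3.

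SOX10, the SoxE factor of neural crest and glia, had 0 summits in its 33-kb window on chromosome 22. RefSeq places it within the bounds of POLR2F, a gene for an RNA polymerase subunit. The stretch without a peak around it ran from 38349841 to 38422866, over 73.0 kb. Its neighbours were a summit of fold 2.85 with 65 ChIP fragments below the window and a summit of fold 12.2 with 161 fragments above it. Of the gaps between neighbouring intervals, 19.6% were at least as long over the list and 7.72% on chromosome 22. Such gaps made up 74.4% of the length of the chromosomes in the list. Absence from the list says that no position in the window passed the authors' threshold, whose lowest listed −log10 q was 2.01. A list of peaks gives no signal there, so the limit for weaker binding is unknown.

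**Figure D4:**
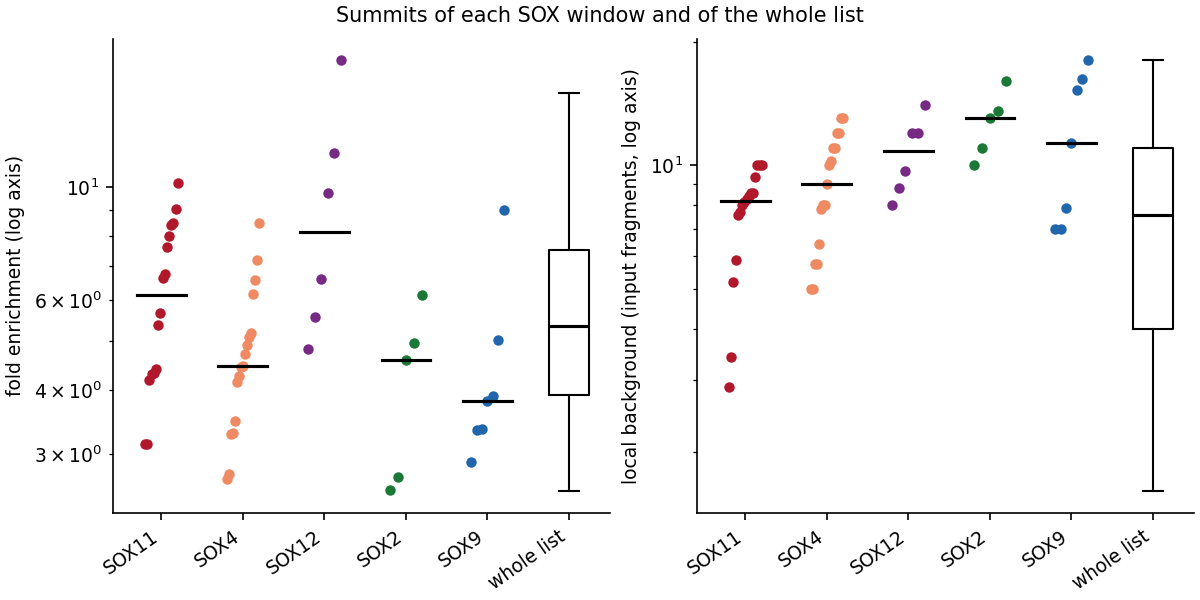
Fold enrichment (left, log axis) and local background in input fragments (right, log axis) of each summit at 5 SOX genes, with the whole list as a box of median and quartiles and whiskers around the central 95% of summits. Horizontal bars are medians. SOX12 has the highest median fold, 8.17, and SOX2 the highest median background, 13.

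The order of the 5 genes by median fold was SOX12 (8.17), SOX11 (6.14), SOX2 (4.58), SOX4 (4.46) and SOX9 (3.80). The ranges of all neighbours in this order overlapped. The order of SOX2 and SOX4 turned in 3 of 4 alternatives: it was SOX4 above SOX2 with the strongest summit of each interval (6.17 and 4.95), without summits under a −log10 q of 10 (4.995 and 4.947) and in windows narrowed by 5 kb (5.08 and 3.82). By median ChIP fragments the order was SOX12 (153.5), SOX9 (83), SOX2 (77), SOX11 (74) and SOX4 (70), so SOX9 was last by fold and next to SOX12 by fragments. The median background was 10.8 at SOX12, 8.19 at SOX11, 13 at SOX2, 9.0 at SOX4 and 11.3 at SOX9. Chromosome medians of the fold were 5.06 on chromosome 20, 5.54 on chromosome 2, 5.36 on chromosome 3, 5.63 on chromosome 6 and 4.87 on chromosome 17. By the median of the whole window, SOX12 and SOX11 were thus above the median of their chromosome, and SOX2, SOX4 and SOX9 below it. The median over the 10 summits of the main SOX11 interval alone was 4.88, which is below that of chromosome 2. Copy number raises ChIP and input alike, and its part in these values was not tested.

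The SOX intervals were wide. Their median width was 474 bp, against 279 bp over the list, and 14 of the 22 were wider than that. Intervals with 4 or more summits numbered 4 of 22 (18.2%, exact 95% CI 5.19 to 40.3), 2 at SOX11 and 2 at SOX4, and made up 2.63% of all intervals. SOX11 was included for such an interval, so neither its share nor the total of 4 is an independent result. All 4 lie at 2 genes, and neighbouring intervals of a gene are not independent. The confidence interval covers counting error only, so it cannot serve to compare the share with that of the list. These 4 intervals held 22 of the 51 summits. Peaks covered 19.2% of the SOX4 window and 16.4% of the SOX11 window. They covered 12.4% of the SOX12 window, 7.53% of the SOX2 window and 7.13% of the SOX9 window. In 3 of the 5 windows, those of SOX11, SOX2 and SOX9, the summit of highest fold was also the one with most ChIP fragments.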

How the data were processed

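The deposited files were 1 peak list per state. Per the submitters' processing notes, the tools were MACS2 2.1.1, deepTools 2.2.4, STAR 2.5.1b, Picard and SAMtools 1.3.1, on hg19. Not given in the sources used here are their settings, the handling of duplicate reads and the way ChIP samples were merged. Each summit has as deposited values a fold enrichment ratio, a −log10 p, a −log10 q and an integer score. They describe and rank summits within the list.

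Members are summits (start plus offset, printed counting from 1) inside the 6 windows. The members, lists and thresholds were chosen with earlier results of these data known. ChIP fragments and background were solved from fold and p with the MACS2 relations (pileup plus 1 over background plus 1, Poisson upper tail), with a common scale of 0.641. A whole number matched −log10 p within 0.0005 at 64657 of 64657 summits, and 29, none of them in the SOX windows, had more than 1 match, of which the closest was used. The procedure was checked on simulated data. ChIP fragments were 1.56 times the input. Shares carry exact Clopper-Pearson 95% intervals, which cover counting error only. No hg19 annotation or sequence was used, so other SOX genes were not analysed here. No test was run. All 6 loci are named, and at each the strongest summits by fold and by fragments. Tools were Python 3.11.15, numpy 2.4.6, pandas 2.3.3, scipy 1.17.1 and matplotlib 3.10.9.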

Additional observations from a re-analysis of the deposited data

How the results depend on the processing

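No paired analysis was possible because 1 list stands for both ChIP samples of a state, and no replicate could be left out. Counts of summits depend on what is counted. Counting intervals gave 4 for SOX11, 7 for SOX4, 3 for SOX12 and 3 for SOX2. A fold of at least 5 left 10, 6, 1 and 2 summits at SOX11, SOX4, SOX2 and SOX9, and a −log10 q of at least 10 left 3 at SOX2 and 4 at SOX9. Windows narrowed by 5 kb on each side left 11 at SOX4, and windows widened by 10 kb gave 12 at SOX12 and 1 at SOX10, where the reported count is 0. The other 23 of 36 recounts, with every summit of an overlapping interval among them, stayed within 1.5 times. With only the strongest summit of each interval, the median fold was 8.47 at SOX11, 6.17 at SOX4, 11.7 at SOX12, 4.95 at SOX2 and 3.89 at SOX9. With a −log10 q of at least 10 it was 4.95 at SOX2 and 4.45 at SOX9, in narrowed windows 3.82 at SOX2 and 3.58 at SOX9, and in widened windows 6.69 at SOX12 and 4.61 at SOX2. With 5 to 7 summits at SOX12, SOX2 and SOX9, a 95% interval of the median is no narrower than their full range, so these medians are given as values only. SOX4 lay above SOX2 by median fold with the strongest summits, with the q threshold (5.0 at SOX4) and in narrowed windows (5.08 at SOX4). Of the 51 summits, 10 reached a fold of 8 (19.6%, against 21.9% of the list) and 1 a fold of 15 (1.96%, against 2.71%). Among tiles with at least 1 summit, 0.132% held as many as SOX11. The SOX11 interval, tied with 2 others for the most summits, was rank 7 by width and 6874 by highest fold. With CACGTG alone, the promoters of SOX4 and SOX2 held 0 matches. The comparison of differing lists was not run because the lists are identical.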

Other observations

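The surroundings of the SOX windows differed. Within 50 kb outside the window, SOX12 had 16 further summits with a median fold of 5.24, and the strongest, at 247752 on chromosome 20 in an interval from 247337 to 247937, had a fold of 16.1 with 199 ChIP fragments. SOX10 had 6 such summits with a median fold of 7.25, SOX2 had 3, SOX11 had 2, SOX9 had 1 and SOX4 had 0. The summits in the 50 kb around SOX11 and SOX9 reached a fold of at most 6.78 and 7.17, on a background of 1.89 and 2.0 input fragments. The next summit beyond the SOX11 window lay 7.97 kb below it and 139.1 kb above it. Other genes share these regions, so these summits are given by position only.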
